A study of Mus musculus with 2 samples.

Results

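Chemokine-producing Retnlg-low neutrophils were the cells of inflamed mouse gingiva that carried neutrophil RNA together with transcripts of the chemokines Ccl3 or Cxcl3 and little Retnlg. They were chosen by their transcripts. A cell was kept with at least 500 unique molecular identifiers (UMIs, each marking 1 captured RNA molecule), at least 200 genes and at most 15% mitochondrial UMIs. It was called a neutrophil where S100a8 and S100a9 made up at least 3% of its UMIs and C1qa, C1qb and C1qc gave at most 2. Members then had at least 10 UMIs of Ccl3 plus Cxcl3 per 10000, fewer than 10 of Retnlg and of Spp1 per 10000, fewer than 5 UMIs of Rsad2, Ifit1, Ifit2 and Ifit3 together, and fewer than 5 of Ngp, Ltf and Camp together. They numbered 2763 of 10948 cells in the normoglycemic library and 1395 of 10260 in the diabetic library, 4158 of 21208 in all.

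The tissue was gingiva from mice of genotype CD11CCre-/-;FoxoLL on a mixed C57B6 and FVB background. Exon 2 of Foxo1 is flanked by loxP sites in these animals, Cre is lacking, and the study treats them as wild type in both groups. Both groups had bacterially induced inflammation for 2 weeks and then waited 2 weeks, and the diabetic group had type-I diabetes induced with streptozotocin, which is toxic to pancreatic beta cells. Ages were not given in the sources used here. Leukocytes were sorted as DAPI-, CD31-, Ter-119- and CD45+, with 20% enrichment of CD11c+ cells, and each library was 1 pool of 4 mice without replicates. Every interval below therefore covers counting error only, no difference was checked against the spread between animals, and pool and condition cannot be told apart.

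Neutrophils are short-lived granulocytes that enter the gingiva continuously and in larger numbers during periodontal inflammation. Ccl3 and Ccl4 are CC chemokines that act on CCR1 and draw monocytes, dendritic cells and lymphocytes, whereas Cxcl1, Cxcl2 and Cxcl3 act on CXCR2 and draw further neutrophils. Many of these genes are switched on by the transcription factor NF-kB, and Retnlg, a resistin-like secreted protein, marks neutrophils that have recently left the blood.

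The 2 chemokine genes of the selection rule lie apart in the genome. Ccl3 (ENSMUSG00000000982) occupies chr11:83647844-83649355 on the minus strand. Cxcl3 lies on chromosome 5 beside Cxcl1 and Cxcl2. The 250 bases before the RefSeq start of each gene (GRCm38.p6, the mm10 assembly) are shown because Ccl3 and the Cxcl genes behaved differently between the libraries. Capitals mark a kB-type decamer, searched as GGGNNTTTCC on both strands. The Ccl3 window is chr11:83649379-83649628 on the minus strand, that of Cxcl3 chr5:90785851-90786100 and that of Cxcl2 chr5:90903649-90903898, both on the plus strand.
Ccl3: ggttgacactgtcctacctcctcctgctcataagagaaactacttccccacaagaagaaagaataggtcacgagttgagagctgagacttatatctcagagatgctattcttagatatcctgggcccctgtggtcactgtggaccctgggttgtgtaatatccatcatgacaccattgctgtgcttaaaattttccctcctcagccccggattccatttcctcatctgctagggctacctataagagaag
Cxcl3: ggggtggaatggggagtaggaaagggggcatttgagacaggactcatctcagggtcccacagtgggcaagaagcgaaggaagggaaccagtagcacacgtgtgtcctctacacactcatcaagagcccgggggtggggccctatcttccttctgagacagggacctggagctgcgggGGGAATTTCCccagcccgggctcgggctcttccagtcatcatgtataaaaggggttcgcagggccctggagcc
Cxcl2: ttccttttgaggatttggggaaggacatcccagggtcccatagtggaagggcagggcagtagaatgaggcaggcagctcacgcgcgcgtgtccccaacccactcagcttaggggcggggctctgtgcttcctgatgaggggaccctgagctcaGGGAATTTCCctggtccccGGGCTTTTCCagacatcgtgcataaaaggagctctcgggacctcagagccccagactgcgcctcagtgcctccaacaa
The decamer occurred in 1.41% of the 32851 mouse promoter windows of this length. GGGAATTTCC stood 73 to 64 bases before the Cxcl3 start and 97 to 88 bases before the Cxcl2 start, where GGGCTTTTCC followed at 78 to 69 bases. The Cxcl1 window held GGGAATTTCC as well, 71 to 62 bases before its start, and a second match on the other strand. The Ccl3 window held no match to these letters, which says nothing of sites elsewhere or of other spelling. Of the other windows searched, 1 of Il1rn, a gene lower in diabetic members, held a match. Those of Il1b and G0s2, both higher in diabetic members, and of Il1a and Tnf, both lower, held none. Nor did those of Retnlg, Isg15, Plet1, Stfa1, Rdh12, Acod1 and Ptgs2. A part of the decamer in the differences between the libraries was not tested.

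Members were the commonest neutrophil group in the normoglycemic library and not in the diabetic one. They made up 56.4% of 4901 neutrophils (95% exact Clopper-Pearson interval 55.0 to 57.8) against 30.7% of 4551 (29.3 to 32.0), a difference of -25.7 percentage points (Newcombe interval -27.6 to -23.8). Of all sorted cells they were 25.2% (24.4 to 26.1) against 13.6% (12.9 to 14.3), while all neutrophils together were 44.8% (43.8 to 45.7) against 44.4% (43.4 to 45.3). Retnlg-high neutrophils, which passed the earlier conditions but had at least 10 Retnlg UMIs per 10000, were 14.0% of neutrophils against 47.6%. Spp1-high neutrophils were 19.7% against 9.27%. The share was lower in the diabetic library to a like extent among cells called male by Y-linked transcripts, at 55.5% against 30.6%. Female calls were 2.08% of called members in the normoglycemic library (1.41 to 2.95) and 7.99% in the diabetic library (5.91 to 10.5). They were 2.16% and 12.7% of called other neutrophils, but 34.6% and 42.2% of called cells that were not neutrophils. The member values are thus no measure of the sex of the pooled animals. The part of female calls in other results was not tested.

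**Figure D1:**
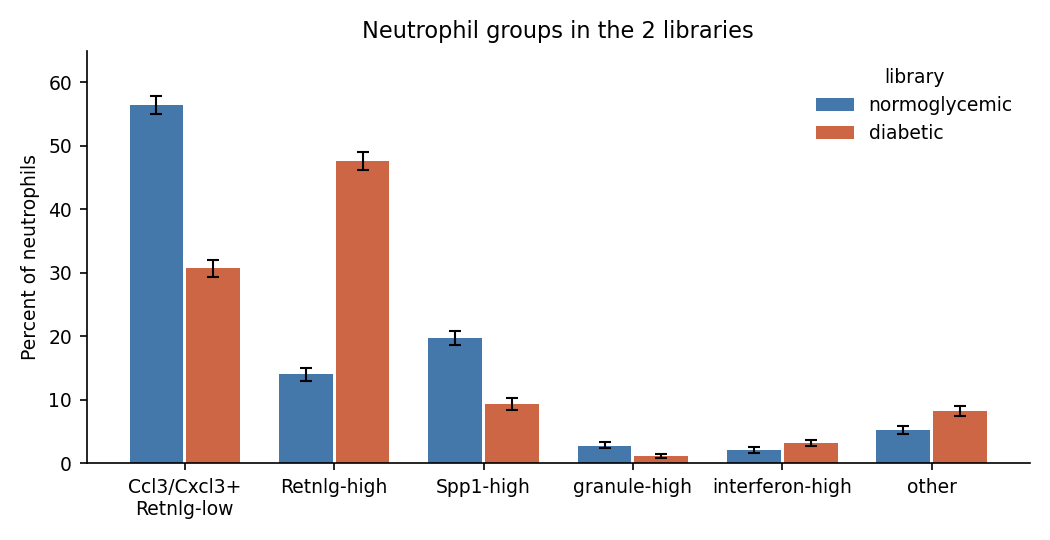
Percent of neutrophils in each of 6 groups of a library (bars, 4901 normoglycemic and 4551 diabetic neutrophils) with exact 95% intervals for counting error. Members, labelled Ccl3/Cxcl3+ Retnlg-low, stand at 56.4% and 30.7%, and the Retnlg-high group at 14.0% and 47.6%.

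The libraries differed more in the Retnlg condition than in the chemokine condition. Retnlg lay below 10 per 10000 in 82.2% of normoglycemic neutrophils (81.1 to 83.2) and in 44.2% of diabetic neutrophils (42.8 to 45.7). Ccl3 plus Cxcl3 reached 10 per 10000 in 92.1% (91.3 to 92.9) and 79.2% (78.0 to 80.4). Chemokine RNA was thus not restricted to Retnlg-low cells: among neutrophils with Retnlg at 10 or more, 87.0% and 78.5% also reached the chemokine level, beside 93.2% and 80.2% among those below. Few of the neutrophils that met all other conditions lay near the chemokine threshold. Among them, 27 normoglycemic and 12 diabetic members had 10 to 12 per 10000, and 23 and 41 cells outside had 8 to 10. Near the Retnlg threshold, 102 and 92 members had 8 to 10 per 10000, and 76 and 89 cells were just outside at 10 to 12. These values chose the members and are a description.

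**Figure D2:**
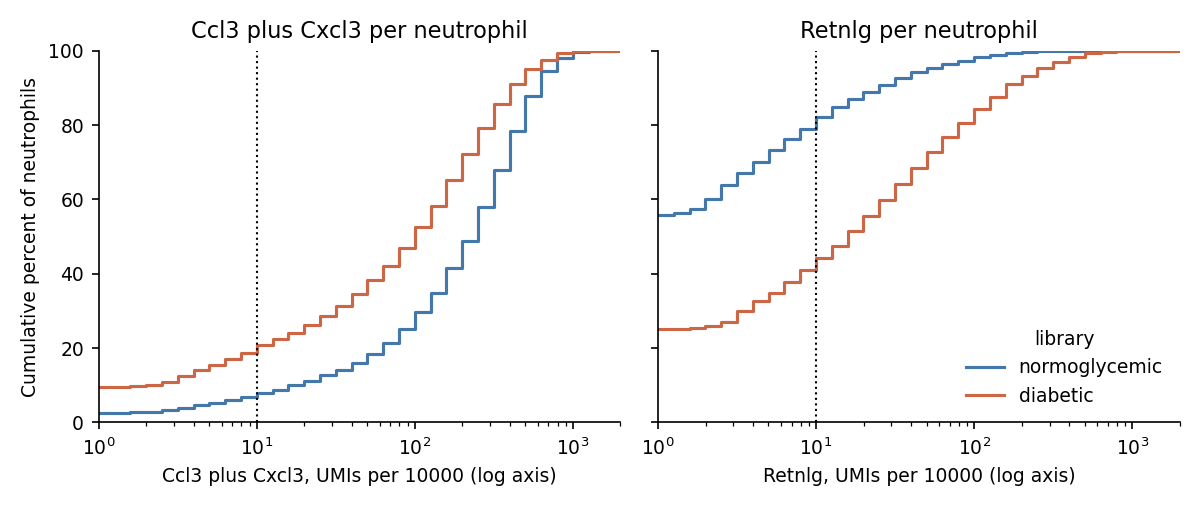
Cumulative percent of neutrophils by UMIs per 10000 (log axis) of Ccl3 plus Cxcl3 (left) and of Retnlg (right), 1 line per library, with the rule's threshold of 10 dotted. The Retnlg curves stand at 82.2% and 44.2% at the threshold, and the chemokine curve of the diabetic library lies above that of the normoglycemic one, so its cells held less.

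The members carried neutrophil markers. Csf3r, the receptor for the neutrophil growth factor G-CSF, stood at 676 UMIs per 1000000 (CPM) in normoglycemic and 610.2 CPM in diabetic members, and Cxcr2, the receptor for the Cxcl1 to Cxcl3 family, at 389 and 658 CPM. These are 3' counts, so levels of different genes compare without scaling for length. In B cells of the diabetic library, which should lack both genes, they were 12.6 and 10.3 CPM. Ly6g, a classical neutrophil surface marker, was low in the members at 10.4 and 19.3 CPM, against 103 CPM in the other diabetic neutrophils. Free RNA was present: Ccl3 gave 9.32 UMIs per 10000 in normoglycemic B cells against 193 in members, and 3.75 against 111 in the diabetic library. Cxcl3 gave 3.75 against 70.8 and 2.32 against 98.9. The 2 genes together thus lay above the rule's 10 per 10000 in normoglycemic B cells and below it in diabetic ones. The part of free RNA in the member shares was not tested.

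Members also held some RNA of other cells, and it was not equal in the 2 libraries. Epithelial markers summed to 22.0 CPM in normoglycemic and 205 CPM in diabetic members, with 2 and 1 of 11 markers at 0. Of these sums, Bpifa2 alone gave 0.901 and 138 CPM. Stromal markers summed to 107 and 578 CPM with 1 of 14 at 0 in each. Macrophage markers summed to 459 and 678 CPM with none of 16 at 0. Dendritic markers summed to 1736 and 1281 CPM, of which Cd74, the class II invariant chain, was 939.8 and 671 CPM against 13287 and 8431 CPM in cells that were not neutrophils. The defining dendritic genes stood at 2.40 and 3.32 CPM against 29.2 and 30.5 CPM for Flt3, and at 0.751 and 0.391 CPM against 7.80 and 6.19 CPM for Zbtb46. Dendritic genes thus lay well below their level in the other cells without being absent. At least 3 UMIs of T or NK, B, mast, epithelial, stromal, macrophage or dendritic markers together were found in 1877 normoglycemic and 830 diabetic members. The member share of neutrophils without such cells was 56.3% against 31.3%. Members were shallower in the diabetic library, with a median of 3256 UMIs against 4011, and 707 genes against 773. With every neutrophil thinned to 1000 UMIs the shares were 50.9% and 27.5%. The libraries shared 32 cell barcodes, of which 3 belonged to members in both.

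Of the abundant chemokines, Ccl3 and Ccl4 had less RNA in diabetic members, while the neutrophil-drawing Cxcl2 was near equal and Cxcl3 higher. Ccl3 stood at 19309 CPM in normoglycemic members and at 11144 CPM in diabetic ones. Cxcl3 stood at 7078 and 9886 CPM, a ratio of 1.40 that fell short of 1.5-fold. Ccl3 and Cxcl3 both belong to the rule, which sets only a lower limit on their sum. Ccl4, which the rule did not use, stood at 17170.1 and 10314 CPM, a ratio of 0.601 (0.595 to 0.606). Cxcl2 was the most abundant chemokine RNA, at 86291 and 90016 CPM with a ratio of 1.04, and its log2 ratio ran from -0.06 to 0.12 over the alternatives. Cxcl1 stood at 928 and 1135 CPM with a ratio of 1.22. None of Cxcl1, Cxcl2 and Ccl6 (1582 and 1337 CPM) differed by 1.5-fold. Among less abundant chemokines, Ccl9, a ligand of CCR1, was lower at 218 and 139.9 CPM, a ratio of 0.642 (0.591 to 0.697). Cxcl16, a membrane-bound ligand of CXCR6, was lower at 29.2 and 18.0 CPM, a ratio of 0.615 (0.485 to 0.774).

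The balance within these pairs differed in the same direction in every neutrophil group. Of the UMIs of Ccl3 and Cxcl3 together, Ccl3 made up 73.2% in normoglycemic members (73.0 to 73.3) and 53.0% in diabetic members (52.7 to 53.3). In Retnlg-high neutrophils, it made up 67.0% and 41.1%. Ccl4 made up 16.6% of the UMIs of Ccl4 and Cxcl2 in normoglycemic and 10.3% in diabetic members, and 16.0% and 8.31% in Retnlg-high cells. Within members, 20.1% of normoglycemic cells had Ccl3 without Cxcl3 and 2.42% had Cxcl3 without Ccl3, whereas in the diabetic library these were 201 and 182 of 1395 cells. After thinning to 1000 UMIs, Ccl3 was found in 94.5% of normoglycemic (93.5 to 95.3) and 79.0% of diabetic members (76.7 to 81.1), and Cxcl3 in 67.7% (65.9 to 69.4) and 78.2% (76.0 to 80.4). The unthinned shares were 97.6% and 87.0% for Ccl3 and 79.9% and 85.6% for Cxcl3. In B cells thinned alike, Ccl3 was found in 10.7% and 8.92% and Cxcl3 in 9.96% and 5.10%, and the median depth of B cells was 4656 and 4466 UMIs.

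**Figure D3:**
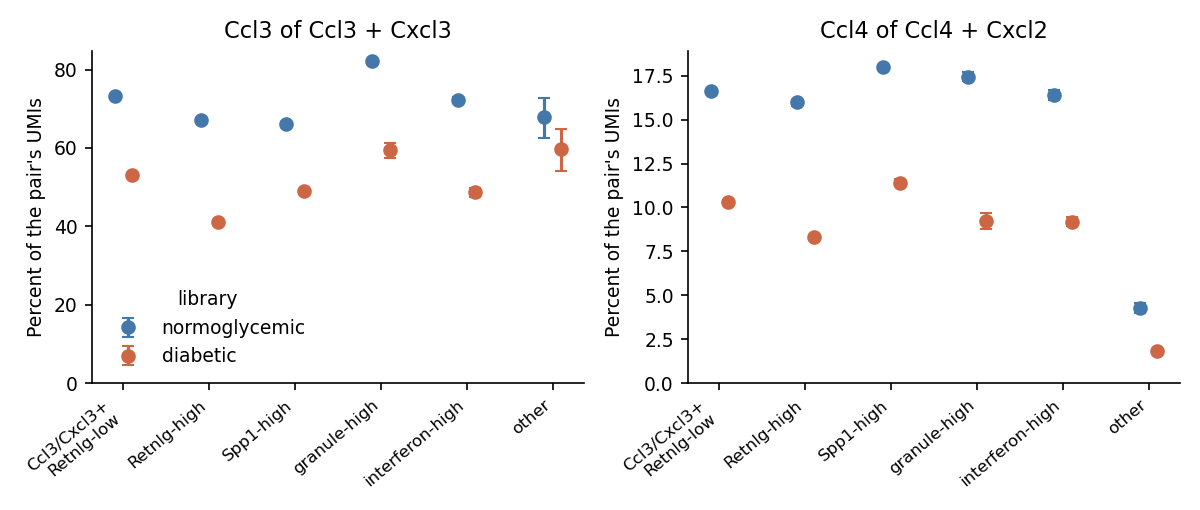
Ccl3 as a percent of Ccl3 plus Cxcl3 UMIs (left) and Ccl4 as a percent of Ccl4 plus Cxcl2 UMIs (right) in each neutrophil group and library, with exact 95% intervals that are often smaller than the points. The diabetic point lies below the normoglycemic one in all 6 groups in both panels, at 53.0% against 73.2% and 10.3% against 16.6% in members.

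Interleukin 1 and TNF genes split in members. Il1b, the main secreted interleukin 1 of neutrophils, stood at 21636 CPM in normoglycemic and 28545 CPM in diabetic members. Its ratio of 1.32 fell short of 1.5-fold. Il1a stood at 2228 and 1011 CPM, a ratio of 0.454 (0.440 to 0.467). Il1rn, which encodes the antagonist of the interleukin 1 receptor, stood at 4926 and 2621 CPM, a ratio of 0.532 (0.522 to 0.542). Tnf stood at 1439.5 and 638 CPM, a ratio of 0.443 (0.427 to 0.460). After thinning, Il1a was found in 54.9% of normoglycemic and 31.7% of diabetic members (70.9% and 45.7% unthinned) and Tnf in 49.7% and 28.1% (73.6% and 47.9% unthinned). In thinned B cells Il1a was found in 2.14% and 1.27% and Tnf in 4.27% and 3.18%.

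Further cytokine genes followed either pattern. Il1f9, which encodes interleukin 36 gamma, stood at 837 and 507 CPM, and Tgfb1 at 261 and 89.9 CPM, a ratio of 0.344 (0.312 to 0.380). Thinned shares of cells with Tgfb1 were 19.4% and 7.76% in members and 22.8% and 9.55% in B cells. No cell type here served as a measure of free Tgfb1 RNA, so the part of it in these shares was not tested. Inhba, an activin subunit, stood at 279 and 106 CPM, a ratio of 0.380 (0.346 to 0.416). Csf1, the macrophage growth factor, stood at 150.2 and 212 CPM, a ratio of 1.41 that fell short of 1.5-fold. Osm (517 and 492 CPM), Il23a (254 and 252 CPM) and Csf3 (220.4 and 203 CPM) differed little. Of 21 cytokine genes that reached 10 CPM in 1 library or both, 2 were at least 1.5-fold higher and 7 at least 1.5-fold lower in diabetic members. Across all 4347 genes tested in members by the same rule, 15.02% were higher and 11.9% lower, and the median log2 ratio was 0.13.

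**Figure D4:**
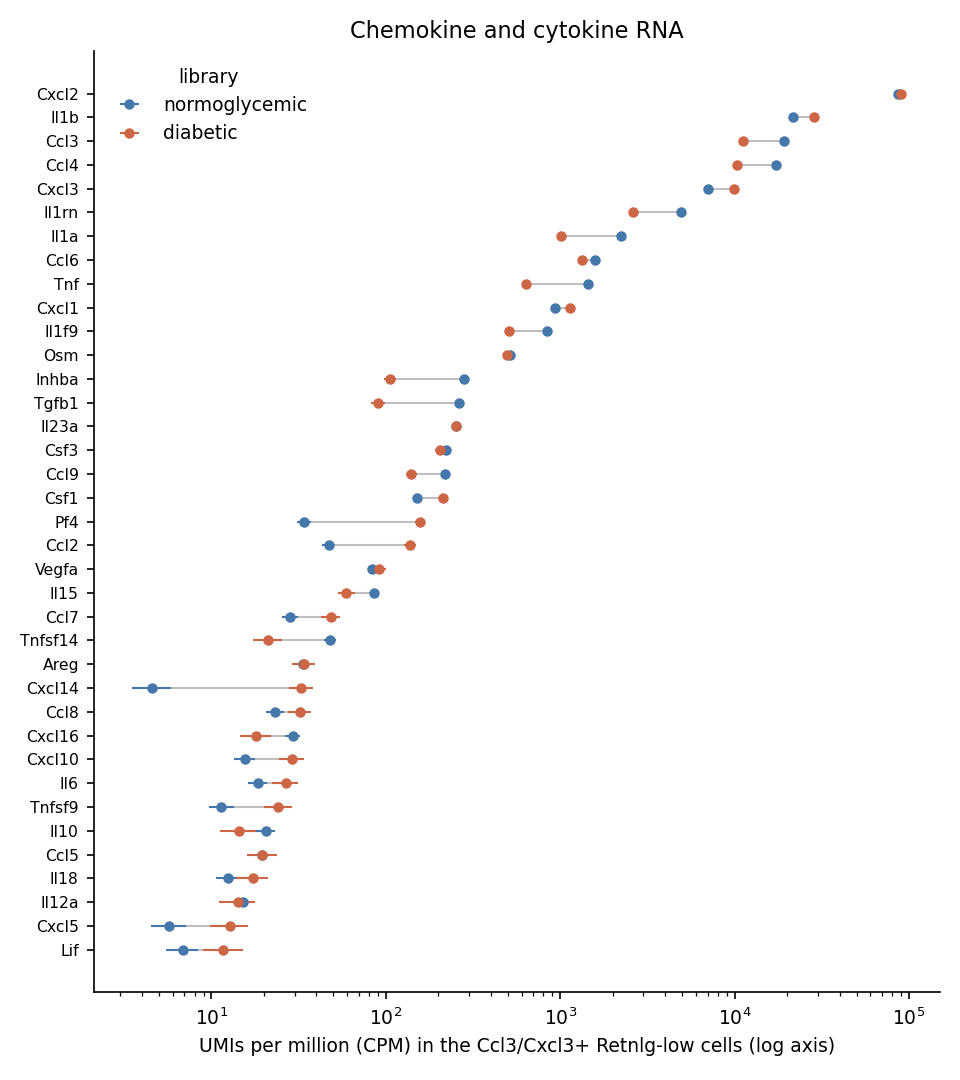
Level of each chemokine and cytokine gene in the members of the normoglycemic (blue) and diabetic (orange) libraries in CPM on a log axis, with exact Poisson 95% intervals; genes with at most 3 UMIs in either library are not drawn. Ccl3, Ccl4, Il1a, Il1rn and Tnf lie lower in the diabetic library, whereas Cxcl3 and Il1b lie higher.

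Some low chemokines were higher in diabetic members along with markers of other cells. Pf4, a platelet and macrophage chemokine, stood at 33.9 and 156 CPM and Ccl2, which draws monocytes, at 46.9 and 137 CPM. Without the cells that held 3 or more UMIs of other markers, Ccl2 stood at 17.1 and 29.9 CPM, a ratio of 1.75 in place of 2.93. Pf4 is itself one of the macrophage markers that define those cells, so its level without them is not given. Cxcl13 had no UMI in normoglycemic members and stood at 21.7 CPM in diabetic members. In diabetic members it stood at 88.0 CPM where S100a8 and S100a9 were 3 to 6% of UMIs and at 5.35 CPM where they were at least 6%.

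Il1a and Tnf were lower in diabetic members at each level of the rule's chemokine sum. That sum chose the members, so the values are a description, and Ccl3 and Cxcl3 differed between the libraries within a bin. Among members with 100 to 200 UMIs of Ccl3 plus Cxcl3 per 10000 (568 normoglycemic and 330 diabetic cells), Ccl3 stood at 10588 and 6208 CPM and Cxcl3 at 4186 and 8370.4 CPM. Il1a stood there at 1716 and 918 CPM and Tnf at 1182 and 724 CPM. Above 200 per 10000 (1531 and 572 cells), Il1a stood at 2987 and 1551 CPM and Tnf at 1853 and 840.0 CPM. From 10 to 50 per 10000 (334 and 280 cells), Il1a stood at 614 and 421 CPM, and Tnf differed less, at 476 and 387 CPM. Both genes were lower in the diabetic library in each of the 4 chemokine bins. Il1a, Tnf and Il1rn were also higher in the top bin than in the lowest in both libraries, for example Il1rn from 2233 to 5936 CPM in the normoglycemic and from 1325 to 3656 CPM in the diabetic library. Il1b varied less, from 17714 to 22761 CPM and from 26401 to 28903 CPM. Cxcr2 ran the other way, from 671 to 292 CPM and from 774 to 495 CPM.

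Across the 6 neutrophil groups of both libraries, 12 points that share library and depth, the genes whose level ordered most like Ccl3 plus Cxcl3 were Ccl4, Eea1 and Il1a (Spearman rho 0.972 each, of 1666 genes ranked). The rule cut these groups and set the neutrophils with little Ccl3 plus Cxcl3 apart (234 and 169 CPM of Ccl3), which fixes the lowest points, so the ranking is a description. Arid5b, Basp1 and Fth1 followed at 0.951, Pik3ap1 at 0.944, and Abca1, Rbpj and Tnfrsf26 at 0.937. Il1a stood at 2228 CPM in normoglycemic members, between 2493 CPM in Spp1-high and 1629 CPM in Retnlg-high cells, and at 1011 CPM in diabetic members, between 1164 and 584 CPM. Ccl4 had the same order, with 20882, 17170.1 and 12653 CPM in the normoglycemic and 11262, 10314 and 6143 CPM in the diabetic library.

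NF-kB genes were not uniformly lower. Of 26 tested, 8 were at least 1.5-fold lower in diabetic members and none higher, beside 11.9% lower and 15.02% higher over all genes. The median log2 ratio was -0.35 beside 0.13 over all genes. The lower genes included Map3k8, a kinase upstream of NF-kB and ERK (245 and 112 CPM), Zc3h12a, an RNase that degrades cytokine messages (333 and 166 CPM), and Sod2, mitochondrial superoxide dismutase (785 and 512 CPM). Nfkbia (10363 and 10575 CPM) and Nfkbiz (3018 and 2999.8 CPM), both direct NF-kB targets, had nearly equal levels. Of 24 AP-1 and immediate early genes, 3 were higher, a smaller share than the 15.02% over all genes, with Fos at 428 and 1023 CPM and Fosb at 122 and 242 CPM, and 1, Atf3, was lower (547 and 329.7 CPM). Thinned shares of cells with Fos were 21.6% and 37.7% in members and 14.6% and 29.3% in B cells (42.6% and 58.7% of members unthinned).

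Several genes of tissue and aged neutrophils were lower in diabetic members. Of 25 tested, 10 were at least 1.5-fold lower and 2 higher, with a median log2 ratio of -0.41. The shares over all genes tested were 11.9% lower and 15.02% higher. Cd274, the checkpoint ligand PD-L1, stood at 536 and 188 CPM, a ratio of 0.350 (0.327 to 0.375), and was found in 33.4% and 13.9% of thinned members (60.0% and 29.4% unthinned). Thinned B cells held it in 2.49% and 3.82%. Cstb, cystatin B, an inhibitor of cathepsins, stood at 1553 and 551 CPM, and Hmox1, heme oxygenase, at 501 and 253 CPM. Cxcr4, a bone marrow homing receptor, stood at 339.6 and 226 CPM. Hilpda, a lipid droplet protein, was higher at 242 and 513 CPM, a ratio of 2.12 beside 1.12 in the other neutrophils pooled. It was not particular to members, at 152 and 428 CPM in Retnlg-high cells. Spp1-high cells, a smaller share of diabetic neutrophils, held it at 631 and 639.9 CPM, and granule-high cells at 317 and 304 CPM.

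Genes of mature blood neutrophils leaned the other way. Of 31 tested, 9 were higher and 2 lower in diabetic members, beside 15.02% and 11.9% over all genes, with a median log2 ratio of 0.26. Cxcr2 stood at 389 and 658 CPM and Mmp9, the gelatinase of tertiary granules, at 101 and 190.1 CPM. The 2 lower genes were Lcn2, an iron-binding granule protein (7918 and 4128 CPM), and Wfdc17 (5856 and 3579 CPM). Members in both libraries thus differed in these genes although the rule had held Retnlg below the same level; median Retnlg was 0 per 10000 in both, and 67.7% of normoglycemic and 56.3% of diabetic members had no Retnlg UMI. Retnlg itself, a gene of the rule, stood at 154 and 254 CPM.

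A number of type I interferon genes and nuclear respiratory chain genes were higher in diabetic members. Of 24 interferon genes tested, 12 were at least 1.5-fold higher and 1 lower, with a median log2 ratio of 0.63. Over all genes tested, 15.02% were higher and 11.9% lower. Isg15, a ubiquitin-like modifier, stood at 259 and 614 CPM (ratio 2.37, 2.26 to 2.49). Ifi27l2a, a gene induced by interferon, stood at 92.7 and 306 CPM (ratio 3.31, 3.07 to 3.57). The rule had removed cells with 5 or more UMIs of Rsad2, Ifit1, Ifit2 and Ifit3. Of 55 nuclear oxidative phosphorylation genes tested, 18 were higher and 0 lower, with a median log2 ratio of 0.52. Cox6b1 and Cox5b, subunits of cytochrome c oxidase, stood at 113 and 175 CPM and at 84.3 and 136 CPM. Glycolysis and hypoxia genes showed no such lean, with 1 of 33 higher and 3 lower, and Gapdh at 966 and 974 CPM.

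Some survival and enzyme genes, and Tlr2 among the sensing genes, were lower in diabetic members. Of 20 survival and death genes, 8 were lower and 1 higher, beside 11.9% lower and 15.02% higher over all genes. The lower ones included the near-identical paralogs Bcl2a1a (198 and 77.5 CPM), Bcl2a1b (961 and 572 CPM) and Bcl2a1d (174 and 53.1 CPM), between which reads may be split. Mcl1, the main survival protein of neutrophils, stood at 3157 and 3488 CPM. Tlr2 stood at 587 and 292 CPM, among 5 lower and 2 higher of 24 sensing genes, small counts to set beside the same shares. Acod1, the enzyme that makes itaconate, stood at 4258 and 2676 CPM, and Arg1, arginase, at 15.7 and 75.6 CPM. All 8 tested NADPH oxidase genes lay within 1.5-fold, with Ncf1 at 577 and 466 CPM.

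**Figure D5:**
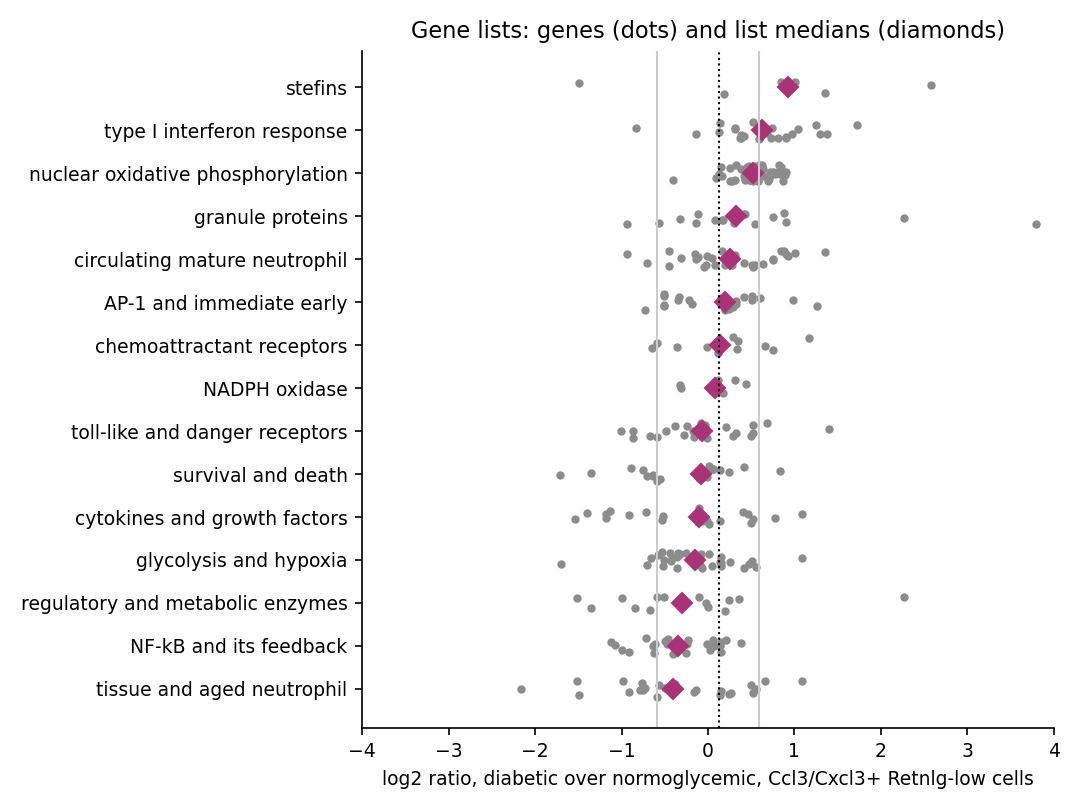
Log2 ratio of each tested gene (dots, diabetic over normoglycemic members) and median (diamond) of 15 gene lists, with the median of all 4347 genes dotted (0.13) and 1.5-fold limits as grey lines; rule genes are left out. Medians run from -0.41 for tissue and aged neutrophil genes to 0.92 for the stefins.

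In all, 653 of 4347 genes (15.02%) were at least 1.5-fold higher and 518 (11.9%) at least 1.5-fold lower in diabetic members. Higher genes were 55.8% of these calls with total scaling, but 41.7% with TMM and 40.1% with DESeq2 size factors, which shifted every log2 ratio by -0.11 and -0.12. The genes named next met stricter limits, with an interval wholly beyond 1.5-fold, as did 74 higher and 145 lower genes. Among the higher ones were Rdh12, a retinol dehydrogenase (75.9 and 508 CPM, ratio 6.69), G0s2, an inhibitor of adipose triglyceride lipase (4295 and 10727 CPM, ratio 2.50), Prnp, the prion protein (15.5 and 67.2 CPM), Snai1, a transcriptional repressor (43.9 and 111 CPM), Plac8 (111 and 272 CPM) and Crispld2 (44.4 and 118 CPM). The stefin A genes Stfa1 (18.0 and 107 CPM) and Stfa2 (102 and 260.4 CPM) and their relative Cstdc5 (244 and 572 CPM), cysteine protease inhibitors of 1 cluster on chromosome 16 with near-identical copies, were higher as well. Gm42418, a locus that gathers ribosomal RNA reads, stood at 4717 and 12024 CPM.

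The top gene of that ranking, Rgs5, a marker of mural cells, stood at 6.84 and 122 CPM, but of its UMIs in diabetic members that held other markers, 98.9% lay in 4 cells. Rgs5 is itself one of the stromal markers, so its level without such cells is not given. Gm13889, which is in no marker list, stood at 5.48 and 64.5 CPM in all members and at 0.294 and 2.72 CPM without the members that held other markers. Stromal markers moved with both genes, and their part in them was not tested.

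Lower genes were led by Plet1, a GPI-anchored surface protein, at 219 CPM in normoglycemic and 23.4 CPM in diabetic members, a ratio of 0.107 (0.0882 to 0.128). Without members that held other markers it stood at 263 and 5.98 CPM, a ratio of 0.0227 (0.0113 to 0.0409). Sh3bp5 stood at 117 and 24.4 CPM, Fnip2, a folliculin partner, at 103 and 22.9 CPM, and F10, coagulation factor X, at 224 and 60.0 CPM. Acp5, tartrate-resistant acid phosphatase, stood at 92.5 and 24.4 CPM, a ratio of 0.264 that was 0.104 without members holding other markers. Sema4d, a semaphorin, stood at 288 and 97.5 CPM, and Ndrg1, a stress-induced gene, at 82.8 and 25.4 CPM. B4galt5, Denr, Slc49a4, Gm20186, Plgrkt and Gde1, with ratios from 0.248 to 0.318, and Bcl2a1d and Cstb, given above, were also among the 15 top-ranked of the 145 lower genes.

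The other neutrophils gave ratios on the same side of 1 for the 15 higher and 15 lower genes of that ranking, often of another size. That did not hold for every gene described above. Cxcl3 gave 1.40 in members and 0.946 in the others, Csf1 1.41 and 0.778, and Cxcl1 1.22 and 0.961. The others pool groups whose shares differed between the libraries, so these pooled ratios mix make-up and level. Cxcl3 stood at 5781 and 7496 CPM in Retnlg-high, 10605 and 10837 in Spp1-high, and 6597 and 6175 in interferon-high cells. Granule-high cells held Cxcl3 at 3936 and 2452 CPM. Cxcl1 stood at 582 and 607 CPM in Retnlg-high, 1153 and 1596 in Spp1-high, and 591 and 461 in granule-high cells. Interferon-high cells held Cxcl1 at 504 and 1305 CPM, and neutrophils that failed only the chemokine condition at 187 and 706 CPM. Csf1 was higher in the latter, at 99.8 and 239 CPM. It was lower in Retnlg-high (103 and 89.9 CPM), Spp1-high (181 and 129), interferon-high (228 and 200.2) and granule-high cells (72.8 and 21.5). Ccl2, at a ratio of 2.93 in members, stood at 57.0 and 57.3 CPM in the others pooled, whose groups went both ways. It was higher in neutrophils that failed only the chemokine condition (38.1 and 164 CPM) and in Spp1-high cells (28.7 and 58.6). It was lower in interferon-high (392 and 54.5 CPM), Retnlg-high (57.6 and 45.8) and granule-high cells (24.6 and 8.62). The ratio of Plet1 was 0.107 in members and 0.0395 (0.0303 to 0.0508) in the other neutrophils, that of Tnf 0.443 and 0.325, and that of Il1a 0.454 and 0.325. Ccl4 gave 0.601 in members and 0.398 in the others, Isg15 2.37 and 2.08, and G0s2 2.50 and 2.35. Chil3, a chitinase-like gene of monocytes and immature neutrophils, gave 13.9 (14.5 and 202 CPM) beside 2.74, and Mt1, a metallothionein, 2.52 (126 and 319 CPM) beside 1.02. Chil3 also stood at 110.3 and 479 CPM in cells that were not neutrophils and at 5.44 and 41.0 CPM in B cells. By group it stood at 22.3 and 80.4 CPM in Retnlg-high, 22.8 and 150.1 in Spp1-high, 417 and 2303 in granule-high, and 174 and 99.3 in interferon-high cells. The part of free RNA in the Chil3 difference was not tested. The intervals cover counting error only, and members and other neutrophils come from the same 2 pools. A difference between members and the others was thus not tested against replicates.

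Set against the other neutrophils of their own library, members had few genes apart beyond those of the rule. Of 3846 genes, 17 (0.442%) were at least 1.5-fold higher in members in both libraries and 52 (1.35%) at least 1.5-fold lower. These contrasts involve cells the rule separated and are a description. Mmp8, a collagenase of specific granules, stood at 28.8 CPM in normoglycemic members against 92.4 CPM in the others, and at 48.2 against 224 CPM in the diabetic library. Prok2, a chemoattractant peptide gene, stood at 25.2 against 74.7 CPM and at 14.7 against 96.9 CPM, and Ifitm6 at 147 against 247 CPM and at 142 against 447 CPM. R3hdm4 stood at 55.7 against 100.4 CPM and at 66.0 against 167 CPM. Arf2, a small GTPase of vesicle traffic, was the 1 higher gene that met the stricter limits, at 191 against 112 CPM and at 115 against 47.8 CPM.

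Class II genes made up 5 of the 17 higher genes, and their level followed the S100 content of the cells. Cd74 stood at 3155 CPM in the 421 normoglycemic members with S100a8 and S100a9 at 3 to 6% of UMIs and at 504 CPM in the 2342 members at 6% or more, beside 467 CPM in the other neutrophils. In the diabetic library these were 1601, 442 and 332 CPM. At least 10 Cd74 UMIs were found in 64 normoglycemic and 11 diabetic members.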

How the data were processed

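The authors deposited raw UMI counts per gene and cell for 2 Chromium 3' v3 libraries (89339733 and 78220582 UMIs in 11280 and 10496 barcodes). The file headers give Cell Ranger 4.0.0, the submitters' processing notes Cell Ranger 6.0.2 with build mm10, and no annotation release is given. The lowest barcode had 500 UMIs, so cells had been selected before deposit. The 4 antibody features were kept apart from the 32285 genes, and symbols with several IDs took the row with most UMIs. The listed genes BC100530, BC117090, Cd97, Clec7a, Cxcl11, Gm5483, Mx1 and Mx2 were not analysed here under those names. Gene positions came from GENCODE on GRCm38.

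Counts were summed over members and scaled to 1000000 UMIs (CPM). Genes that reached 10 CPM in 1 library or both were tested and called at 1.5-fold, rule genes left out. Log2 ratios used a pseudocount of 0.5 counts. Ratios had exact conditional binomial, levels exact Poisson, shares exact Clopper-Pearson and differences of shares Newcombe 95% intervals, all for counting error only. With 1 library per condition no test across replicates was possible and no p-value was computed. No doublet caller was run; leaving out cells with 3 or more UMIs of other classes' markers was an alternative. B cells had at least 3 UMIs of Cd79a, Cd79b and Ms4a1 and no T cell receptor or CD3 UMI. The self-test on simulated counts checked the ratio code.

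Named genes had at least 50 CPM and 50 UMIs in the higher library, at least 0.5 times the level of that library's other cells and an interval wholly beyond 1.5-fold, up to 15 per direction ranked by the bound nearer 1. All chemokine and cytokine genes with at least 10 CPM could be named, and from other lists up to 4 genes. The genes named beyond that (Chil3, Mt1, Fosb, Nfkbiz, Mcl1, Gapdh, Ly6g and others set beside a result) were chosen after their values were seen. Members and lists were chosen with earlier results of these data known. Python 3.11.15, scipy 1.17.1, R 4.3.3, edgeR 4.0.16 (TMM factors) and DESeq2 1.42.0 (size factors) were used.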

Additional observations from a re-analysis of the deposited data

Results flagged for a closer look

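The matrices held 4 antibody features, named C1 to C4, that no comparison above used and whose targets are not given in the sources used here. Whether they tag the 4 pooled animals is likewise not given, and no value per animal was computed. Members carried a mean of 34.1 antibody UMIs per cell in the normoglycemic library (94221 in all, median 7) and 7.78 in the diabetic library (10856 in all, median 3). The highest cell had 2977 and 1031. The other cells carried means of 72.2 and 26.5, so members were below them in both libraries. In diabetic members C2 gave a mean of 4.14 UMIs per cell, beside 0.993 for C1, 1.21 for C3 and 1.44 for C4, whereas in normoglycemic members C4 was highest at 12.1 and C1 lowest at 5.65.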

How the results depend on the processing

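No paired analysis was possible because each condition was 1 library. The member share of neutrophils stayed lower in the diabetic library under all 10 cell-level alternatives, by 23.4 to 26.3 points (-23.4 after thinning, the 1 value outside the main interval). The difference in share of all cells was -10.2 with S100 genes at 6% or more, -9.08 with no C1q UMI, -4.11 without cells holding other markers and -13.2 in male cells. Genes called higher and lower in diabetic members were 180 and 226 at 50 CPM or more, and 5133 and 4265 with any UMI, since these filters test fewer or more genes. Genes higher in members than in other neutrophils in both libraries were 31 with no C1q UMI, 44 without cells holding other markers, 33 in male cells, 6 at 50 CPM and 1076 with any UMI, beside 17. Lower genes were 90 with S100 at 6%, 80 with no C1q UMI, 98 with chemokines at 20 per 10000, 131 without cells holding other markers, 8 at 50 CPM and 1035 with any UMI, beside 52. The log2 ratio turned to -0.04 for Ccl7 and -0.55 for Cxcl14 with S100 at 6%, to -0.08 for Cxcl5 with Retnlg below 5, and to -0.37 for Cxcl10 and -0.08 for Tnfsf9 without cells holding other markers. In male cells it was -2.15 for Cxcl5, -0.31 for Cxcl10, -0.70 for Cxcl14 and -0.24 for Tnfsf9. The cause of these shifts was not tested. Of the other values, 593 gene ratios and 323 list medians stayed within their intervals and 226 and 13 moved beyond them without a change of direction among called values; the class II median ranged from -1.02 to 0.22. Depth limits genes below about 10 CPM, and 1 library per condition limits every difference.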
